A study of Homo sapiens with 45 samples.

Results

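Here 8 genes of cholesterol and fatty acid synthesis were followed through 45 single human embryonic stem cells. They are HMGCS1, MVD, IDI1, FDFT1, SQLE, INSIG1, SCD and FADS2, taken as the rows of those names in the deposited tables of 23045 genes, so 8 of 23045 rows are described here. All cells came from H1, a long-established line of such cells, and had passage number 40. They were grown on Matrigel in mTeSR1 medium and detached with Accutase. The groups were 15 live and 12 fixed cells prepared by FRISCR, which retrieves RNA from single cells after fixation, and 11 live and 7 fixed cells lysed plainly with the detergent Triton. Live cells were labelled DAPI- and fixed cells DAPI+. Per its design line, the study used these groups to show that FRISCR works in principle.

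The labels limit what the groups stand for. Separate cultures are not named, so a group counts as 1 sample of 1 cell line, its cells are not replicates of a condition, and no test was possible between groups. Sample titles carry other method codes, PLRC in FRISCR and RLT in Triton cells, and the extraction text in the labels describes cortical tissue. A code in the titles divides the cells into 2 sets, called library sets here. The labels do not say what the code stands for. Live cells numbered 8 (set 1) and 7 (set 2) with FRISCR and 5 and 6 with Triton. Fixed cells numbered 6 and 6 with FRISCR and 4 and 3 with Triton. Values within each set are given for part of the ratios. Whether the sets are separate repeats is not stated. Pluripotency markers matched the labelled cell type: 11 of 11 reached 20 counts per 1000000 (CPM) in 3 groups and 10 of 11 in fixed Triton cells, and their summed level had a median of 6257 CPM (live) and 6275 CPM (fixed) with FRISCR, and 5318 CPM (live) and 1904 CPM (fixed) with Triton. Of 6 markers of hepatocytes and adipocytes, cells rich in lipid synthesis, ALB, PPARG, FABP4 and PLIN1 were at 0 in every group, 0 reached 20 CPM, and the summed level was at most 12.3 CPM in a cell. Of 5 endoderm markers, SOX17, GATA6, GATA4 and FOXA2 were at 0 in every group, while 1 marker reached 20 CPM in fixed Triton cells, where the sum went up to 125 CPM. Of 7 fibroblast markers, 3 reached 20 CPM in 3 groups and 2 in fixed Triton cells, with median sums of 688 CPM (live) and 553 CPM (fixed) with FRISCR and 589 CPM and 246 CPM with Triton; COL3A1, DCN and LUM were at 0 throughout. Of 8 neural markers, 2 reached 20 CPM in each group, with median sums of 390 CPM and 294 CPM with FRISCR and 410 CPM and 134 CPM with Triton, and SOX1 and HES5 were at 0 throughout. The part of such genes in the results below was not tested.

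Cholesterol is built from acetyl-CoA through mevalonate, isoprenoid units and squalene, and fatty acids are lengthened and desaturated in a parallel branch. The transcription factors SREBP, encoded by SREBF1 and SREBF2, drive genes of both branches when sterols in the endoplasmic reticulum run low. The SREBP escort protein is SCAP, and INSIG1 retains that pair in the endoplasmic reticulum when sterols are plentiful. HMGCS1 makes the precursor of mevalonate, MVD makes the isoprenoid unit isopentenyl diphosphate and IDI1 isomerises it. FDFT1 is squalene synthase and SQLE is squalene epoxidase. SCD makes monounsaturated fatty acids, and FADS2 makes the first desaturation towards long polyunsaturated fatty acids.

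NF-Y, which binds the letters CCAAT, is known to act beside SREBP at promoters of this pathway, so the windows of the 3 printable members with a single annotated start are shown. Each is 250 bases before the start in RefSeq's GRCh38.p14 annotation, 5′ to 3′ on the gene's strand, with every CCAAT on either strand in capitals (ATTGG is CCAAT on the other strand). MVD lies at chr16:88663092-88663341 on the minus strand, INSIG1 at chr7:155297628-155297877 on the plus strand and SCD at chr10:100346983-100347232 on the plus strand.
MVD: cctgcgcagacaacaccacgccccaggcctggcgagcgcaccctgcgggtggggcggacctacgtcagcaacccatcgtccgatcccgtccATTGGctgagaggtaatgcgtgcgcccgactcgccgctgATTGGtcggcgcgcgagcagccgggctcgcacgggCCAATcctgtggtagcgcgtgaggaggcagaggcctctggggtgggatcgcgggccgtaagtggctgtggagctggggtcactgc
INSIG1: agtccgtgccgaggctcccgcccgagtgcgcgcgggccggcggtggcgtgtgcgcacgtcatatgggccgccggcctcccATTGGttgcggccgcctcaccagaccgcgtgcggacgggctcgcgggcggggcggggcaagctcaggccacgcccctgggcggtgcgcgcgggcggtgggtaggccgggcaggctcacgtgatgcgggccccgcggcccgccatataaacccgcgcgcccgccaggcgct
SCD: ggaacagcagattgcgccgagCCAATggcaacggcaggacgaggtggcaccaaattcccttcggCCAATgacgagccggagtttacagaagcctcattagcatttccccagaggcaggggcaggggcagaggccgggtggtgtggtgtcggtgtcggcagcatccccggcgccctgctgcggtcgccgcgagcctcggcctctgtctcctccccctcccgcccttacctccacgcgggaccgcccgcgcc
CCAAT stood 159, 120 and 85 bases before the start of MVD, 170 before that of INSIG1, and 229 and 186 before that of SCD. Over the 10 windows of HMGCS1, MVD, IDI1, INSIG1, SCD and FADS2, CCAAT was in 6 windows of 5 genes (FADS2 held none), against 32.0% of all 35116 windows of this length. GGGCGG, the Sp1 box, was in 9 windows of 6 genes, against 42.6% of all windows. CACGTG, the E-box, was in the INSIG1 window alone, against 6.34% of all windows. The SREBP element searched as TCACNCCAC was in none of the 10, against 0.883% of all windows. Both strands were searched, 2 of these motifs can share only their end letters, and a match or its absence describes these letters only. FDFT1 and SQLE sequences are not used here.

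Levels of different genes were compared in TPM, a share of transcripts per 1000000 that the authors scaled by gene length. FDFT1 was the most abundant of the 8 in 3 groups. In live FRISCR cells its TPM ran from 298 over a median of 604 to 1319, in fixed FRISCR cells from 313 over 668 to 1166, and in live Triton cells from 305 over 482 to 820. These 3 groups overlapped almost fully. SCD came second in the same groups, with medians of 447, 262 and 296 TPM. FDFT1 exceeded SCD in 14 of 15 live FRISCR, 12 of 12 fixed FRISCR and 9 of 11 live Triton cells. SQLE (medians 247, 165 and 220 TPM) and IDI1 (236, 226 and 179 TPM) followed. SQLE was above IDI1 in 10 of 15 live FRISCR and 6 of 11 live Triton cells, and IDI1 was above SQLE in 8 of 12 fixed FRISCR cells, so the pair has no steady order within its spread. HMGCS1 and MVD came lower. HMGCS1 ran from 42.2 over 128 to 216 TPM in live FRISCR cells, from 17.5 over 119 to 354 in fixed FRISCR cells and from 19.0 over 100 to 200 in live Triton cells. It was above MVD, its neighbour in live FRISCR and live Triton cells, in only 8 of 15 and 6 of 11 cells. INSIG1 had the lowest median in all 4 groups, at 91.3, 39.4, 63.0 and 0.09 TPM.

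**Figure D1:**
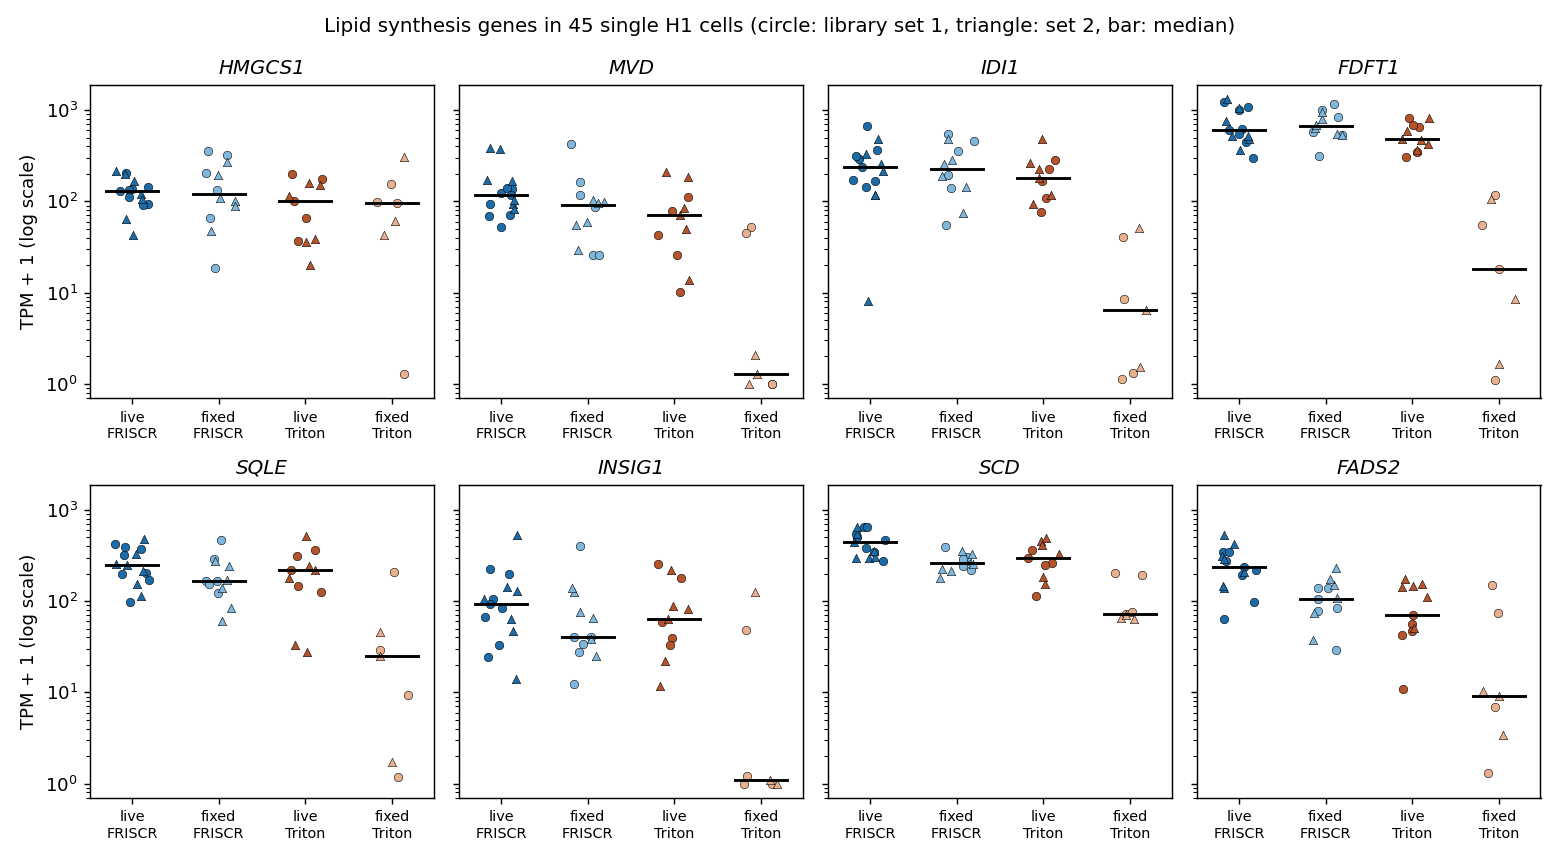
TPM + 1 on a log axis for each of the 8 genes, with 1 point per cell (circle for library set 1, triangle for library set 2), in 4 columns for the groups; the bar is the median. FDFT1 stands highest in the first 3 groups, and the fixed Triton cells spread down towards 0 for every gene but SCD, whose lowest fixed Triton cell has 63.0 TPM.

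The 8 genes also differed in how evenly cells carried them. By the SD divided by the mean over cells, SCD was the most even member in both FRISCR groups and in fixed Triton cells. Its TPM had a mean of 447 ± 136 (SD, n = 15 cells) in live FRISCR and 272 ± 62.8 (SD, n = 12 cells) in fixed FRISCR cells. INSIG1 was the least even in all 4 groups, with FRISCR values of 123 ± 129 (SD, n = 15 cells) and 84.1 ± 106 (SD, n = 12 cells). Its live FRISCR cells ran from 13.0 over 91.3 to 535 TPM, and the next highest cell had 223 TPM. The top cell, replicate 10, held 35.0% of the INSIG1 counts of its group, and in fixed FRISCR cells replicate 6, with 397 TPM, held 34.8%. Live FRISCR replicate 10 also had the highest sum of the 8 genes, 7272 CPM, in a group that ran from 2402 over 3554 CPM. IDI1 had a single low live FRISCR cell, replicate 12, with 6.99 TPM where the next had 116 TPM. Outside the fixed Triton group, all 8 genes had counts in every cell.

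Fixed Triton cells stood apart in quality before any gene is considered. Total counts over all 45 cells ranged from 3388417 to 6594043. After each cell was thinned to 1000000 counts, a median of 5062 genes was detected in fixed Triton cells (4093 to 6591), against 9057 and 8929 with FRISCR (live, fixed) and 9636 in live Triton cells. The row TVAS5, 1 of 5 abundant rows whose names match no gene symbol, took a median of 26.3% of the counts of fixed Triton cells (16.2% to 33.0%), 6.90% of live Triton cells, 0.826% of live FRISCR and 0.773% of fixed FRISCR cells. Rows named for rRNA took a median of 9.00% in fixed Triton and 1.26% in live Triton cells. Totals below that leave out the abundant rows leave out those 5 rows and the 44 rows named for rRNA. Since CPM and TPM are shares of all counts, these rows lower the share of every other gene, and the part of RNA quality in the differences below was not tested.

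The comparison of fixed with live cells within FRISCR asks how far fixed cells keep the profile of live ones. FADS2 was the 1 member past 2-fold: it was 2.07-fold lower in fixed cells (95% counting interval 2.03 to 2.11), and SCD was 1.56-fold lower (1.54 to 1.58). Among the genes that reached 20 CPM in fixed or live cells, 7.69% were past 2-fold lower and 3.34% past 2-fold higher, so 1 of 8 lower and 0 of 8 higher is close to the background. The median log2 ratio was -0.38 over the 8 genes and -0.02 over 7518 genes. Counting intervals here and below are exact and taken on group sums. Counting error is all that they cover: the reads carry no molecular identifiers, so they do not count independent molecules, and the spread over cells is left out.

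The desaturases gave the steadiest difference. FADS2 ran from 62.0 over 234 to 526 TPM in live and from 28.3 over 106 to 230 TPM in fixed FRISCR cells. The ranges overlapped, yet 0 of 12 fixed cells lay above the live median. Summed, FADS2 stood at 467 CPM live and 226 CPM fixed, with log2 ratios of -1.09 in set 1 and -1.05 in set 2. With single cells left out the log2 ratio ran from -1.19 to -0.93, the last without fixed FRISCR replicate 3 and inside 2-fold. That was not the only cell whose removal brought it inside 2-fold, so the call lies at the threshold. SCD ran from 277 over 447 to 653 TPM in live and from 180 over 262 to 392 TPM in fixed cells, and 0 of 12 fixed cells lay above the live median. Its log2 ratios in the sets were -0.62 and -0.66.

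The mevalonate and squalene enzymes differed less and less evenly. HMGCS1 had a log2 ratio of 0.31 (0.58 in set 1, 0.03 in set 2), IDI1 0.14 (0.14 and 0.15), FDFT1 0.09 (0.15 and 0.02, and -0.01 by mean TPM) and SQLE -0.36 (-0.17 and -0.57). MVD stood at -0.41 but pointed in opposite directions in the sets, 0.65 and -1.41. One fixed cell, replicate 2, held 35.2% of the fixed MVD counts, and the MVD ratio without it was -0.90. INSIG1 stood at -0.55, with -0.08 in set 1 and -0.94 in set 2. Both ends of its range over left-out cells hung on the top cells named above: -1.05 without fixed FRISCR replicate 6 and -0.05 without live FRISCR replicate 10.

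Of 17 other measured genes of the mevalonate and sterol pathway, 0 were past 2-fold either way, with a median log2 ratio of -0.10. NSDHL, a sterol demethylation enzyme, was highest (127 against 94.7 CPM, with log2 ratios of 1.12 and -0.02 in the sets). LSS, lanosterol synthase, was lowest (99.7 against 188 CPM, with -0.71 and -1.11 in the sets). Among 6 SREBP regulators, SREBF1 was past 2-fold higher (24.7 against 9.16 CPM) and MBTPS2, a protease that releases SREBP from the membrane, past 2-fold lower (13.0 against 28.9 CPM). SREBF2 had 60.9 against 111 CPM and SCAP 61.4 against 71.4 CPM. All 7 genes of lipoprotein uptake and sterol transport lay below the median of all genes, with a median of -0.38 and 2 past 2-fold lower, among them LIPA, the lysosomal acid lipase (50.7 against 126 CPM). STARD4, a cholesterol carrier, was the highest of them (59.5 against 62.0 CPM). The 14 other genes of fatty acid synthesis had a median of -0.26 and 0 past 2-fold, from ELOVL4, an elongase (49.6 against 36.0 CPM), down to ACACA, acetyl-CoA carboxylase (63.5 against 119 CPM). Sterol efflux genes (3, median -0.25) and fatty acid oxidation genes (9, median -0.05) had 0 past 2-fold.

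**Figure D2:**
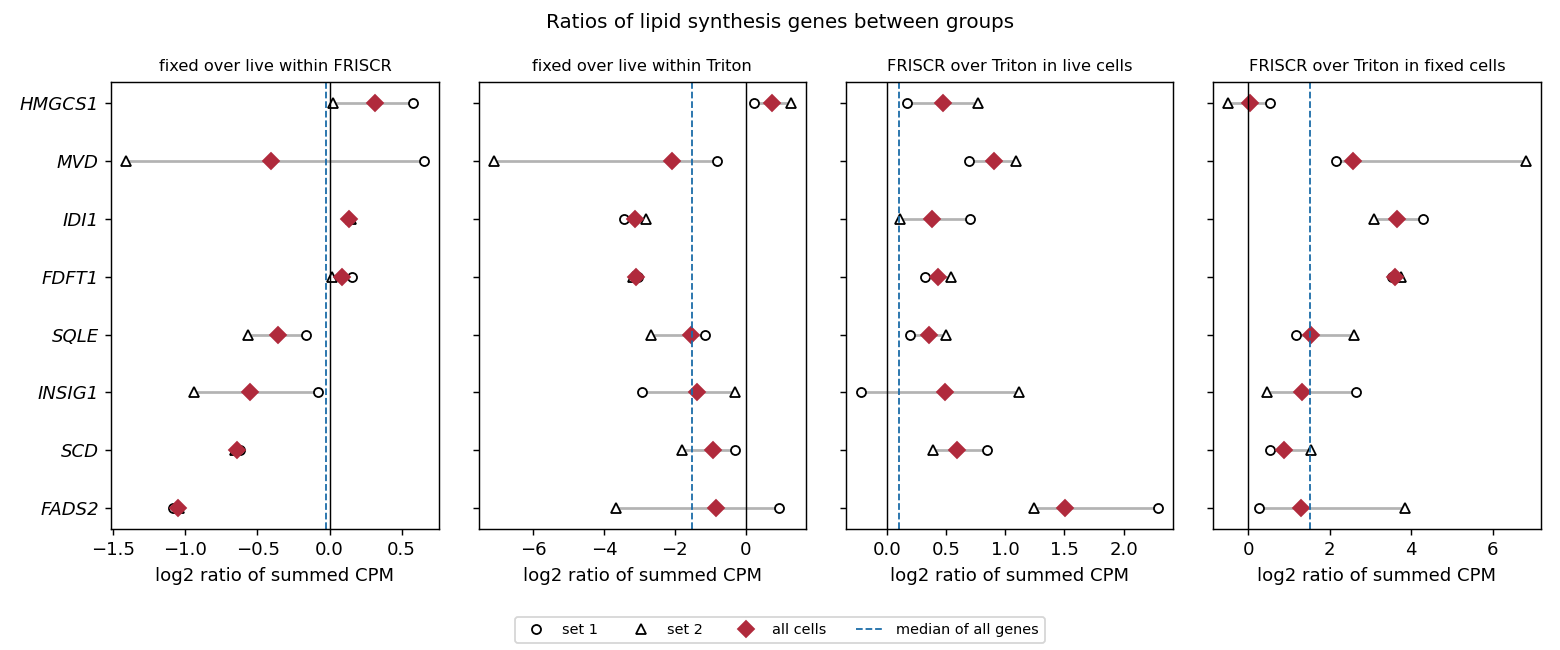
Log2 ratio of summed CPM for each of the 8 genes in 4 comparisons, each panel with its own axis; diamonds are all cells, circles library set 1, triangles library set 2, and the dashed line is the median of all genes. FADS2 and SCD have nearly the same ratio in both sets in the first panel, IDI1 and FDFT1 lie near -3 in the second, all 8 diamonds lie right of the dashed line in the third, and HMGCS1 lies near 0 in the fourth.

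The comparison of fixed with live cells within Triton lysis asks the same without the recovery step. In total 5 members were past 2-fold lower in fixed cells: IDI1 (8.81-fold, 8.20 to 9.47), FDFT1 (8.50-fold, 8.14 to 8.88), MVD (4.21-fold, 3.85 to 4.60), SQLE (2.92-fold, 2.82 to 3.02) and INSIG1 (2.60-fold, 2.48 to 2.74). None was past 2-fold higher. That is 5 of 8, where 58.5% of 7256 genes were past 2-fold lower and 12.4% past 2-fold higher, and the median log2 ratio of the 8 genes, -1.46, was close to that of all genes, -1.50. The calls depended on the setting. By TMM and with totals that leave out the abundant rows 3 were past 2-fold lower, where SQLE (-0.92 and -0.93) and INSIG1 (-0.75 and -0.77) lost the call. By median-of-ratios 2 were, where MVD (-0.88) lost it too. By mean TPM and with medians of per-cell CPM 7 were past 2-fold lower, with SCD (-1.51 and -1.57) and FADS2 (-1.34 and -2.33) added. Scaling by median-of-ratios moved the median of all genes to -0.30; SCD and FADS2 then stood at 0.28 and 0.36, so their direction depends on the scaling.

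IDI1 and FDFT1 were the members whose groups did not overlap in TPM. IDI1 had 0.13, 7.48, 39.7, 0.31, 5.52, 50.4 and 0.51 TPM in fixed Triton replicates 1 to 7, while live Triton cells ran from 76.4 over 179 to 484 TPM. Every fixed cell was below every live cell in TPM. In CPM the IDI1 groups overlapped, with 97.5 CPM in fixed Triton replicate 6 and 95.2 CPM in live Triton replicate 1. FDFT1 had 117, 0.11, 16.9, 54.0, 0.64, 7.44 and 104 TPM in the same 7 cells, again below all 11 live cells. Such a separation in TPM, with every fixed cell lower, held for 2 of 8 members and for 13.6% of all genes. The log2 ratios were similar in the sets, -3.45 and -2.81 for IDI1 and -3.04 and -3.18 for FDFT1. Without fixed Triton replicate 6 that of IDI1 was -4.08.

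HMGCS1 went the other way from the rest in summed CPM. Its medians over cells were 94.3 TPM fixed against 100 TPM live, but 278 CPM against 209 CPM. In TPM, 2 of 7 fixed cells lay above its live median. Its fixed Triton cells had 152, 98.7, 94.3, 0.28, 59.3, 41.3 and 302 TPM, and 1 of the 7 was thus near 0 while the others lay within or above the live range of 19.0 to 200 TPM. Summed, it stood at 322 CPM fixed and 191 CPM live, a log2 ratio of 0.75 (0.23 and 1.28 in the sets), the only positive ratio of the 8. It rested partly on replicate 7, without which it was 0.22, and on the scaling: it was past 2-fold higher by TMM (1.38), by median-of-ratios (1.95) and with totals that leave out the abundant rows (1.37), and 0.11 by mean TPM. SCD was the most evenly kept: its 7 fixed cells had 195, 202, 71.7, 75.8, 63.0, 63.6 and 69.7 TPM, all of them below the live median of 296 TPM. Its ratio of -0.92 (-0.31 and -1.81 in the sets) crossed 2-fold without fixed Triton replicate 2, at -1.21, and also without replicate 1.

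The remaining members were carried by a few fixed Triton cells each. MVD had 51.5 and 43.9 TPM in replicates 1 and 3, 1.07 and 0.27 TPM in replicates 7 and 6, and none in replicates 2, 4 and 5. INSIG1 had 124 and 47.7 TPM in replicates 7 and 3, 0.22 and 0.09 TPM in replicates 4 and 6, and none in replicates 1, 2 and 5. After thinning, counts remained in 4 of 7 cells for MVD (57.1%, exact 95% Clopper-Pearson interval 18.4% to 90.1%), 3 for INSIG1 (42.9%, 9.90% to 81.6%), 5 each for IDI1 and FDFT1 and 6 for SQLE. A single cell held 76.9% of the INSIG1, 72.6% of the SQLE, 63.7% of the FADS2 and 58.8% of the MVD counts of the group. The cells on top were different ones: replicate 1 for FADS2, MVD and FDFT1, replicate 2 for SQLE and SCD, replicate 6 for IDI1 and replicate 7 for HMGCS1 and INSIG1. Without its top cell the log2 ratio of INSIG1 was -3.26 in place of -1.38, that of SQLE -3.16 in place of -1.55, that of MVD -3.12 in place of -2.07 and that of FADS2 -2.07 in place of -0.84. For FADS2 the sets also pointed in opposite directions, 0.94 and -3.65.

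Other genes of the pathway spread as widely. Of 17 other mevalonate and sterol genes, 11 were past 2-fold lower and 1 past 2-fold higher, with a median log2 ratio of -1.43. The higher one was EBP, a sterol isomerase, with 593 CPM fixed and 285 CPM live and log2 ratios of 0.92 and 1.19 in the sets. At the other end MVK, mevalonate kinase, had 2 counts in all 7 fixed cells against 1497 in live cells. Of 5 SREBP regulators 4 were past 2-fold lower: MBTPS1, a protease that cleaves SREBP (7.82 against 76.1 CPM), INSIG2, which acts as INSIG1 does (7.31 against 33.5 CPM), SCAP (15.4 against 53.8 CPM) and SREBF2 (30.5 against 61.8 CPM). SREBF1 was higher (31.3 against 8.91 CPM) but with opposite ratios in the sets, -7.36 and 3.17. Of 14 other fatty acid synthesis genes 10 were past 2-fold lower, with a median of -2.38. ELOVL1, an elongase, was the highest (30.4 against 37.3 CPM). ELOVL4 had 0 counts in fixed Triton cells against 2916 in live ones. With the sum set at the floor of 3 counts it was 490-fold lower, and the lower end of the counting interval was 398-fold. Sterol transport had 4 of 7 lower, among them STARD4 with 4 counts against 2857, the lipoprotein receptor SCARB1 (3.23 against 37.0 CPM) and LIPA (16.1 against 77.8 CPM). NPC2, a carrier of cholesterol out of lysosomes, was the highest of them (100.0 against 112 CPM). Efflux had 2 of 3 lower, NR1H2, a sterol-sensing receptor (4.08 against 37.7 CPM), and ABCA1, the cholesterol efflux pump (8.41 against 38.1 CPM), while LPCAT3, a phospholipid enzyme, had 188 against 144 CPM. Fatty acid oxidation had 7 of 9 lower, among them HADHB, a subunit of the mitochondrial trifunctional protein (5.04 against 124 CPM).

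The comparison of both preparations in live cells asks whether FRISCR itself changes the profile. All 8 members were above the median of all genes, and all 8 had higher summed CPM with FRISCR, as had 58.6% of all genes. FADS2 was past 2-fold higher, 2.83-fold (2.77 to 2.90), and MVD was 1.87-fold higher (1.81 to 1.93). This is 1 of 8 past 2-fold higher and 0 past 2-fold lower, where 6.57% of 7447 genes were past 2-fold higher and 3.14% past 2-fold lower. The median log2 ratio was 0.48 over the 8 genes and 0.10 over all genes. Live Triton cells carried the larger TVAS5 share given above, whose part in these ratios was not tested; with totals that leave out the abundant rows the medians were 0.38 over the 8 genes and 0.00 over all genes.

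FADS2 ran from 9.81 over 70.0 to 173 TPM in live Triton cells, and 14 of 15 live FRISCR cells lay above that median. The groups overlapped. Summed, FRISCR cells held 467 CPM and Triton cells 165 CPM, with log2 ratios of 2.29 in set 1 and 1.24 in set 2, and between 1.37 and 1.63 with any single cell left out. Live Triton cells themselves differed between the sets for FADS2, with 77.5 CPM in set 1 and 237 CPM in set 2, the largest set difference of a member in that group (log2 1.61). MVD had 151 against 80.6 CPM (0.69 and 1.09 in the sets), and 13 of 15 live FRISCR cells lay above the Triton median of 70.2 TPM. Its log2 ratio of 0.90 crossed 2-fold at 1.13 without live Triton replicate 10, and also crossed it without replicate 8. SCD (0.59), HMGCS1 (0.47), FDFT1 (0.44), IDI1 (0.39) and SQLE (0.35) were higher with FRISCR in both sets. INSIG1, at 0.49, had -0.22 in set 1 and 1.12 in set 2, and -0.01 without live FRISCR replicate 10.

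In the other genes of the pathway, 12 of 17 mevalonate and sterol genes lay above the median of all genes, with a median of 0.23 and 0 past 2-fold either way. LSS was highest (188 against 103 CPM) and PMVK, phosphomevalonate kinase, lowest (42.7 against 53.1 CPM, with log2 ratios of -0.70 and 0.22 in the sets). All 7 uptake and transport genes lay above it too, with a median of 0.53. NPC1, the lysosomal membrane partner of NPC2, was the lowest of them (41.4 against 37.1 CPM). Of the 14 other fatty acid synthesis genes, 8 were above it, with a median of 0.26, from FASN, fatty acid synthase (198 against 115 CPM), to ELOVL4 (36.0 against 50.4 CPM). MBTPS2 was the 1 SREBP regulator of 5 past 2-fold higher (28.9 against 10.9 CPM) and MBTPS1 the lowest (48.7 against 76.1 CPM). SREBF2 had 111 against 61.8 CPM, SCAP 71.4 against 53.8 CPM and SREBF1 9.16 against 8.91 CPM, the last with log2 ratios of -4.03 and 1.20 in the sets. Of 9 fatty acid oxidation genes only CPT1C, a carnitine palmitoyltransferase, was past 2-fold higher (70.2 against 31.0 CPM). CPT2, of the same family, was lowest (43.5 against 61.7 CPM). The 3 efflux genes were near equal, from LPCAT3 (148 against 144 CPM) to NR1H2 (37.2 against 37.7 CPM).

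The comparison of both preparations in fixed cells asks what the recovery step yields after fixation. In total 6 members were past 2-fold higher with FRISCR: IDI1 (12.7-fold, 11.8 to 13.6), FDFT1 (12.2-fold, 11.7 to 12.7), MVD (5.93-fold, 5.44 to 6.48), SQLE (2.91-fold, 2.81 to 3.02), INSIG1 (2.50-fold, 2.37 to 2.63) and FADS2 (2.45-fold, 2.35 to 2.55). None was past 2-fold lower. Of 7272 genes 59.8% were past 2-fold higher and 10.6% past 2-fold lower, and the median log2 ratio was 1.43 over the 8 genes and 1.53 over all genes. The members thus lay close to the background. Under median-of-ratios scaling the median of all genes was 0.27. By TMM, by median-of-ratios and with totals that leave out the abundant rows 3 members were past 2-fold higher, and SQLE, INSIG1 and FADS2 lost the call in each. By mean TPM and with medians of per-cell CPM 7 members were past 2-fold higher, with SCD (1.37 and 1.49) added. This comparison shares its fixed Triton cells with the one above and is no independent repeat of it.

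In TPM, IDI1 and FDFT1 were again without overlap: the lowest fixed FRISCR cells had 53.4 and 313 TPM, above the highest fixed Triton cells with 50.4 and 117 TPM. By TPM, 2 of 8 members had every FRISCR cell higher, against 6.82% of all genes. In CPM the IDI1 groups overlapped: fixed FRISCR replicate 3 had 70.0 CPM, and fixed Triton replicates 3 and 6 had 70.8 and 97.5 CPM. For 7 of the 8 genes all 12 fixed FRISCR cells lay above the fixed Triton median, a count whose share over all genes was not taken. HMGCS1 was the exception, with 8 of 12. FRISCR cells held 330 CPM of it and Triton cells 322 CPM, a log2 ratio of 0.03 with opposite signs in the sets (0.52 and -0.49), and it was below 0 when scaled by TMM (-0.67), by median-of-ratios (-1.23) or to totals that leave out the abundant rows (-0.67). SCD had 939 against 515 CPM (0.87, with 0.53 and 1.54 in the sets), but -0.39 under median-of-ratios. The ratio of INSIG1, 1.32, was 0.82 without fixed FRISCR replicate 6 and 3.20 without fixed Triton replicate 7. Single fixed Triton cells also moved the fold of IDI1 to 24.3 (without replicate 6), of MVD to 12.3 and of FADS2 to 5.75 (both without replicate 1), and of SQLE to 8.90 (without replicate 2). SCD crossed 2-fold without replicate 1 (2.09-fold) and without replicate 2 (2.23-fold).

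Of 16 other mevalonate and sterol genes 13 were past 2-fold higher with FRISCR, with a median of 1.66, from SC5DL, a sterol desaturase (404 against 16.8 CPM), down to EBP (298 against 593 CPM). Fatty acid synthesis had 11 of 14 higher with a median of 2.09, led by ELOVL4 (2719 counts against 0) and with ELOVL1 lowest (27.8 against 30.4 CPM). SREBP regulation had 3 of 5 higher, led by INSIG2 (42.0 against 7.31 CPM) and with MBTPS1 (26.4 against 7.82 CPM) and SCAP, down to SREBF1 (24.7 against 31.3 CPM, with log2 ratios of 7.57 and -0.94 in the sets). SREBF2 had 60.9 against 30.5 CPM and SCAP 61.4 against 15.4 CPM. Uptake and transport had 4 of 6 higher, among them STARD4 (3259 counts against 4), SCARB1 (41.2 against 3.23 CPM) and LIPA (50.7 against 16.1 CPM), and NPC1 was lowest (28.4 against 19.8 CPM). Efflux had 2 of 3 higher, NR1H2 (37.2 against 4.08 CPM) and ABCA1 (21.0 against 8.41 CPM), while LPCAT3 had 124 against 188 CPM. Fatty acid oxidation had 8 of 9 higher, from HADHB (126 against 5.04 CPM) to ETFB, an electron carrier subunit (38.6 against 38.3 CPM). The log2 ratios of ETFB were opposite in the sets, 4.20 in set 1 and -1.08 in set 2.

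The library sets show how far 2 portions of the same group can differ. The median size of the log2 ratio of set 2 over set 1 was 0.19 over the 8 genes in live and 0.27 in fixed FRISCR cells, where all genes had 0.47 and 0.52. With Triton it was 0.41 (live) and 1.43 (fixed), where all genes had 0.50 and 1.67. MVD in live FRISCR cells (94.5 CPM in set 1, 211 CPM in set 2) and FADS2 in live Triton cells were the members past 2-fold between sets in the first 3 groups, where 20.7%, 26.9% and 22.2% of all genes were. In fixed Triton cells 6 of 8 were, MVD most (33.4 and 0.71 CPM), close to the 70.9% of all genes. Ratios within FRISCR for FADS2 and SCD were thus larger than the set differences of those genes there, which on the log2 scale were 0.56 live and 0.60 fixed for FADS2 and -0.07 and -0.11 for SCD.

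Beyond group levels, the 8 genes varied together from cell to cell. In live FRISCR cells the median Pearson r of log2(CPM + 1) over the 28 pairs was 0.49 and all 28 were above 0, while the median over all pairs of 8898 genes was 0.00. The members' median exceeded the r of 96.0% of those pairs. In live Triton cells the median was 0.43, above 89.1% of all pairs, with 23 of 28 above 0. In fixed FRISCR cells it was 0.34, above 84.7%, with 26 of 28 above 0, and in fixed Triton cells 0.14, above 60.5%, with 18 of 28 above 0. Of all pairs, 50.3%, 49.8%, 50.7% and 49.1% were above 0 in live FRISCR, live Triton, fixed FRISCR and fixed Triton cells. Points in each case share library preparation, depth and composition, and the correlations are descriptions without a test. Over the 26 live cells, with the mean of each group and library set subtracted, the median was 0.43 (0.14 to 0.74), above 97.3% of all pairs, and all 28 pairs were above 0.

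Pairs differed. FDFT1 with INSIG1 (0.74) and HMGCS1 with SCD (0.67) were the closest over the 26 live cells, and INSIG1 with FADS2 (0.14) the loosest. HMGCS1 had the highest median r with the other 7 genes, 0.61, and FADS2 the lowest, 0.26. In live Triton cells the FADS2 row held all but 1 of the pairs below 0, with FDFT1 (-0.14), INSIG1 (-0.13), SQLE (-0.09) and HMGCS1, and the other such pair was MVD with FDFT1 (-0.02). The mean of the 8 genes over these cells had an r of -0.17 with total counts, 0.03 with genes detected, -0.36 with the TVAS5 share and 0.36 with the share of rRNA rows. The part of these shares in the joint variation was not tested.

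**Figure D3:**
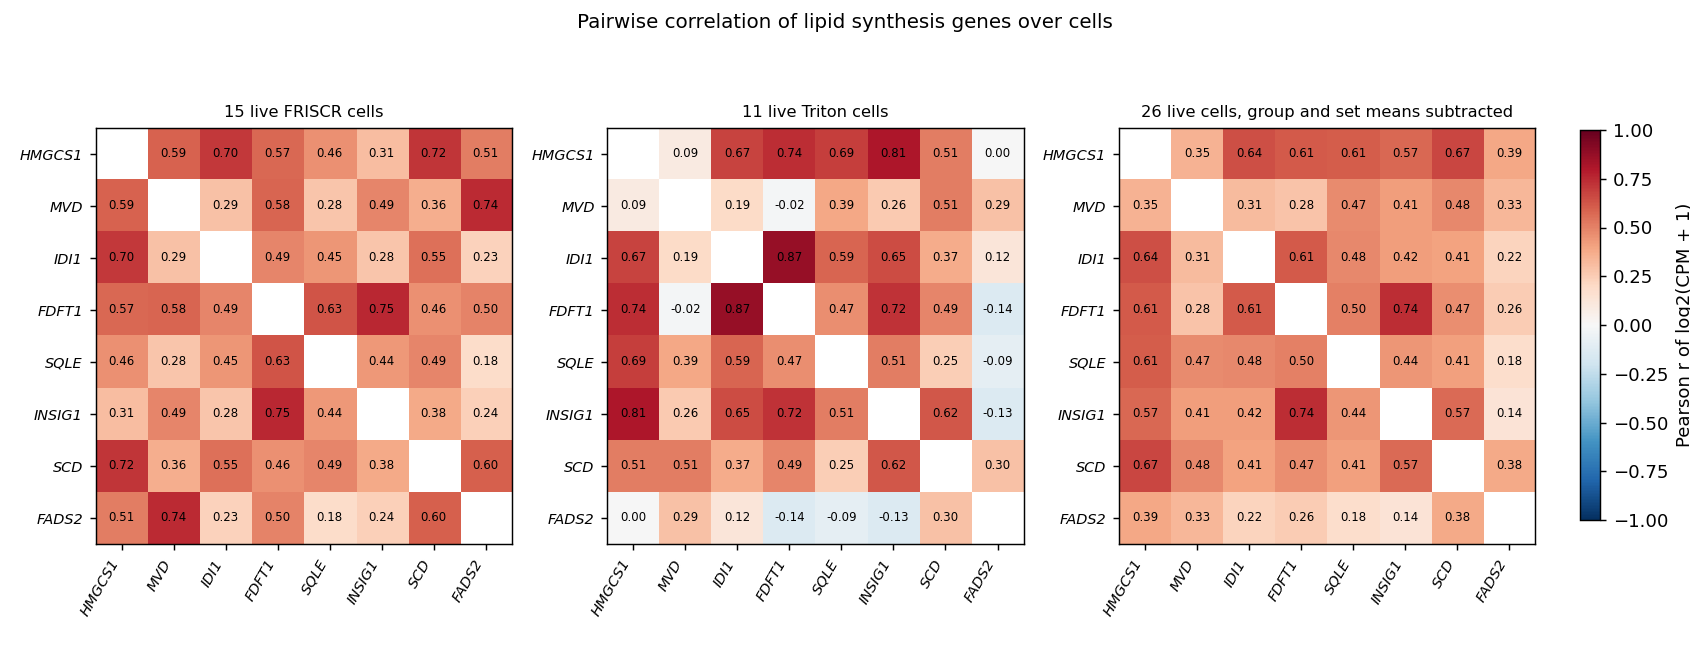
Pearson r of log2(CPM + 1) for each pair of the 8 genes in 15 live FRISCR cells, 11 live Triton cells, and all 26 live cells after group and library set means were subtracted; red is positive and blue negative. The first and last panels hold only positive values, and the FADS2 row of the middle panel is the palest.

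The genes most like the mean of the 8 were then ranked over the 26 live cells among 8160 other genes. The top 5 included ACAT2, the thiolase ahead of HMGCS1 (r = 0.78; 0.78 in live FRISCR and 0.82 in live Triton cells), ZNF701, a zinc finger gene (0.74; 0.74 and 0.73), and TASP1, a protease (0.71; 0.74 and 0.64). ZNF701 and TASP1 were low, with means of 10.6 and 14.0 CPM, against 921 CPM for ACAT2. With any 1 of the 26 cells left out, ACAT2 ranked between 1 and 4, ZNF701 between 1 and 6 and TASP1 between 3 and 8. In the 12 fixed FRISCR cells, which the ranking did not use, r was 0.55 for ACAT2, 0.27 for ZNF701 and 0.38 for TASP1.

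Likeness was uneven over the pathway. The 17 other mevalonate and sterol genes had a median r of 0.53, against 0.02 over all 8160 genes; 14 lay above that median and 11 ranked in the top 100. SC4MOL (0.68), FDPS (0.65) and LSS (0.64) followed the leaders, while PMVK (-0.03), LBR (-0.01) and GGPS1 (-0.41), which leads isoprenoids away from sterols, did not share the pattern. Of 14 other fatty acid synthesis genes 3 ranked in the top 100, ACSS2 (0.61), FASN (0.57) and ACLY (0.54), and the median was 0.28. The top 100 held none of 5 SREBP regulators, 7 uptake and transport genes, 3 efflux genes and 10 fatty acid oxidation genes, whose medians were 0.04, 0.06, -0.08 and 0.09. Within them SREBF2 had 0.50 and SCAP -0.05. ABCA1 had -0.52 and ranked 8121 of the 8160 genes.

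**Figure D4:**
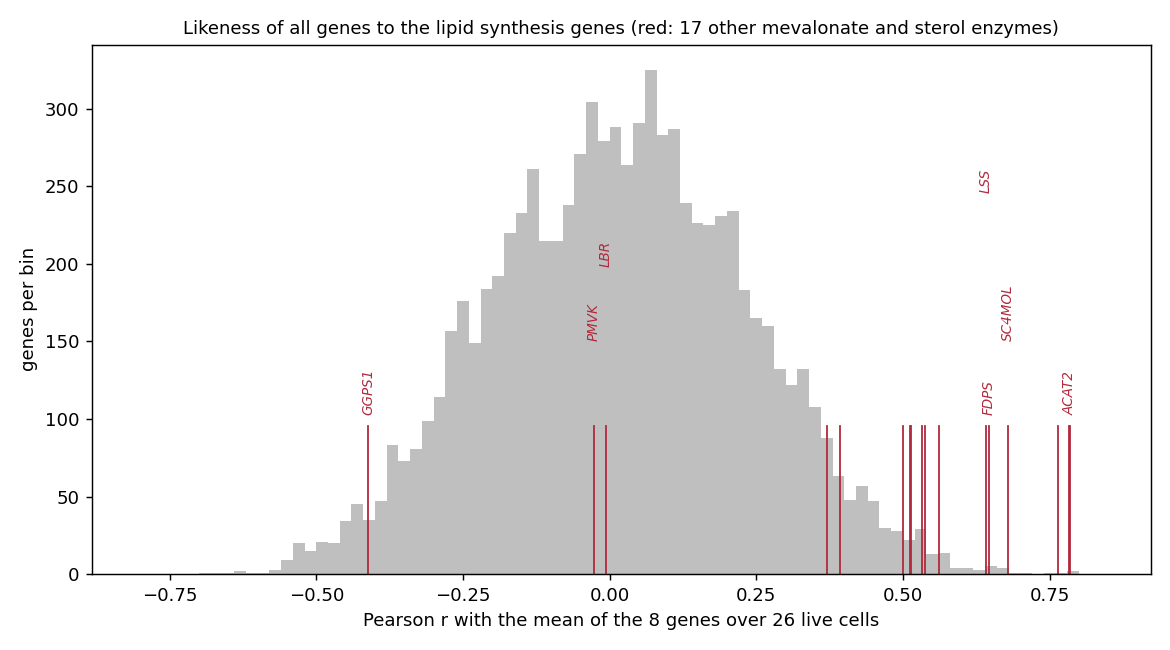
Histogram of Pearson r between each of 8160 genes and the mean of the 8 genes over 26 live cells, group and set means subtracted (x axis), as genes per bin (y axis); red lines mark 17 other mevalonate and sterol enzymes, with names for those given an r in the text. Of the 17 lines, 14 lie right of the median of all genes at 0.02, and GGPS1 lies far to the left at -0.41.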

How the data were processed

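The authors deposited 2 tables with a column for each of 45 cells: estimated counts per gene (40.3% of those above 0 are fractional) and TPM values, scaled by length and depth by the authors. Libraries were made with Smart-Seq2 and Nextera XT, per the labels' protocols, and, according to the submitters' processing notes, reads were placed on GRCh37 (hg19). Aligner, quantifier and gene models were not given in the sources used here. The 8 genes and the pathway lists were chosen with earlier results of these data known.

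Estimated counts were rounded. Groups were taken from the labels' sample group. Counts were summed over a group's cells and divided by summed totals (CPM), and 4 ratios were formed, each with an exact 95% binomial interval. A gene was called past 2-fold, with no p-value. Sums of 0 were set at 3 counts over the group. Background genes had at least 20 CPM in either group. Detection was counted after thinning to 1000000 counts. Correlations were taken on log2(CPM + 1) for genes averaging 10 CPM or more, and the ranking also asked for a count in at least 60% of live cells. Named were the 8 genes, the highest and lowest other gene of each list in each comparison, the 5 genes most like the members, and the regulators SREBF1, SREBF2 and SCAP, less some genes that this rule takes and that are not reported here; the other genes given with an r, the markers and the genes called past 2-fold were named after their values were seen. No cell was left out. The procedure was tested on simulated data. Alternatives, with R 4.3.3, were TMM scaling (edgeR 4.0.16), median-of-ratios scaling from DESeq2 1.42.0, other totals and summaries, thresholds of 1.5 and 4, minimums of 5 CPM or any count, a pseudocount of 10, thinning to 500000 counts, single library sets and leaving out each cell; detection without thinning and the ranking without each cell were added after the data were seen. Python 3.11.15, numpy 2.4.6, pandas 2.3.3, scipy 1.17.1 and matplotlib 3.10.9 were used.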

Additional observations from a re-analysis of the deposited data

Results flagged for a closer look

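HMGCS1 in fixed Triton replicate 4 stood far below the other 6 cells of its group, at 0.81 on the log2(CPM + 1) scale (3 counts). It was the 1 such cell over the 8 genes tested in that group, the only one of 4 to 10 cells. The cut is set to flag about 1 in 20 genes when values are normally spread, which was not shown here. A single flag over 8 genes is thus unremarkable. Without that cell the log2 ratio of HMGCS1 in fixed over live Triton cells was 0.97.

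The log2 ratios of fixed over live cells for IDI1 and FDFT1 had opposite signs with Triton and with FRISCR, in both library sets. The share of all genes with such opposite signs was not taken. Of all genes, 48.1% were higher in fixed cells with FRISCR and 26.0% with Triton, and the median log2 ratios were -0.02 and -1.50. For IDI1 the difference of the log2 ratios, Triton minus FRISCR, was -3.28, and for FDFT1 it was -3.17. These differences were not tested, since each group is 1 sample. The ratios within FRISCR were small, 0.14 and 0.09, and that of FDFT1 was -0.01 by mean TPM.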

How the results depend on the processing

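Of the log2 ratios of single members, 959 values under alternatives lay within 1 SD over cells of the reported value, and 17 moved further, most of them in the same direction. This is a loose measure, since most alternatives leave out 1 cell and the SD is that of single cells. INSIG1 in fixed over live Triton cells counted as within it at -3.26 without fixed Triton replicate 7, against -1.38 as reported. No past-2-fold ratio changed sign. The median of all genes in fixed over live Triton cells was -1.50 as reported, -0.87 by TMM, -0.30 by median-of-ratios and -0.89 with totals without the abundant rows, and the members shifted with it. Fixed over live within FRISCR: members past 2-fold lower numbered 0 by median-of-ratios, 2 in library set 2, 2 at a 1.5-fold threshold and 0 at 4-fold. Its background was 7.95% higher and 12.2% lower at a minimum of 5 CPM, and 14.8% and 18.5% with any count. Fixed over live within Triton: members past 2-fold lower numbered 3 by TMM, 2 by median-of-ratios, 3 without the abundant rows and 3 at 4-fold, and 1 was higher under those 3 scalings, in set 2 and at 1.5-fold. By mean TPM and with medians of per-cell CPM 7 were lower, and the members' median was -3.40 with medians of per-cell CPM. FRISCR over Triton in live cells: 3 were higher in set 2, 3 at 1.5-fold and 0 at 4-fold, and the background was 12.5% higher and 6.23% lower at 5 CPM, and 19.0% and 13.9% with any count. FRISCR over Triton in fixed cells: 3 were higher by TMM, 3 by median-of-ratios (1 lower), 3 without the abundant rows and 3 at 4-fold. By mean TPM and with medians of per-cell CPM 7 were higher, and the median was 3.99 with medians of per-cell CPM. Without thinning, IDI1, FDFT1 and SQLE had a count in 100% of fixed Triton cells.

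With each cell left out in turn, the members' median ran from -0.49 to -0.11 for fixed over live within FRISCR (0 to 2 lower), from -1.69 to -1.22 within Triton (5 to 7 lower), from 0.37 to 0.62 for FRISCR over Triton in live cells (1 to 2 higher) and from 1.20 to 1.92 in fixed cells (5 to 7 higher). The median r ran from 0.32 to 0.50 over 26 live, 0.43 to 0.52 over live FRISCR, 0.28 to 0.57 over live Triton, 0.29 to 0.45 over fixed FRISCR and 0.08 to 0.19 over fixed Triton cells, and 3 to 5 of the 5 genes most like the members were shared. No paired analysis was possible because cells have no shared replicate and no test was made.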
